A study of Mus musculus with 12 samples.

Results

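De novo lipogenesis is the route by which cells build fatty acids from acetyl-CoA. Its transcripts are described here through a list of 10 genes, Acaca, Acacb, Acly, Fasn, Scd1, Scd2, Elovl6, Me1, Thrsp and Mlxipl. A member was measured by the probe set that the platform annotation assigns to that gene and to no other, and where there were several, by the one with the highest mean over all arrays. By this rule 9 of the 10 members, among 22180 genes tested, had a probe set of their own, and each of the 9 had 1 such probe set. The probe set for Scd2 is annotated to several genes, so Scd2 was not analysed here.

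The study used 12 Affymetrix arrays, 3 biological replicates for each of 4 groups, all from freshly isolated material of C57BL/6 mice with no treatment in the labels. Adipose progenitors (AP) were what remained of the enzymatically released stromal-vascular fraction once beads had removed lineage-positive blood cells and CD31+ endothelial cells. Whole adipose tissue (AT) was not fractionated, and it holds mature adipocytes together with stromal, vascular and immune cells. Both preparations came from the inguinal subcutaneous depot (SAT) and from the perigonadal visceral depot (VAT), and the comparisons asked how progenitors differ from their tissue and how the depots differ. The labels give neither age nor sex, nor which animals gave which replicate, and the design text speaks of several mice, so material may have been pooled. If the replicates share animals, the p-values measure a spread that is partly technical. Dissociation and bead depletion were applied to the AP samples only, so their effects and the difference in cell type cannot be told apart.

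In the lipogenic pathway, citrate leaves the mitochondrion and is split by ATP citrate lyase to give cytosolic acetyl-CoA. Acetyl-CoA carboxylase turns this into malonyl-CoA, fatty acid synthase condenses the units into palmitate with NADPH as the reductant, and elongases and desaturases then lengthen and desaturate the product. In liver the genes of the pathway are induced by insulin through SREBP-1c. In fat and liver they are induced by glucose through ChREBP, the product of Mlxipl, and mature adipocytes are a main site of their expression.

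The deposited values are log2 intensities after robust multi-array averaging (RMA). They ran from 1.69 to 13.48 over all probe sets, and the array medians lay between 4.49 and 4.67. A difference of 1 on this scale is a 2-fold change of signal. Differences were tested with limma over all 22180 genes with Benjamini-Hochberg adjustment, and a gene was said to rise or fall where the adjusted p was under 0.05. A mean under 4.09, the 40th percentile of all values, was called dim. The 9 members were above that level in all 4 groups. Levels of different genes were not compared with each other, because probe sets differ in their response.

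The preparations were checked against marker lists. In AP, 9 of 9 measured progenitor markers, Pdgfra and Cd34 among them, were higher than in AT in SAT and 8 of 9 in VAT, where Dpp4 did not pass the test. All 11 adipocyte markers, from Adipoq to Pnpla2, were lower in AP in both depots. The mean level of the adipocyte list was 6.89 to 7.22 on the 6 AP arrays and 10.72 to 11.02 on the 6 AT arrays, and no marker of the list was dim in AP. All 7 macrophage markers and 7 of 8 endothelial markers were also lower in AP in both depots, and the endothelial exception, Tek, was higher, a call that 11 of 23 alternatives lost in VAT. In these bulk samples fewer cells of a type and less RNA per cell cannot be told apart, so each AP against AT value below is given beside this shift in adipocyte markers. The part of the adipocyte content in those values was not tested.

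The sequence upstream of the members' transcription starts is shown first, as a description. RefSeq promoter windows (GRCm38.p6) were found for 8 of the 9 measured members, with 2 windows each for Me1 and Mlxipl, and the 250 bases before each of the 10 starts were searched on both strands. The windows of 5 members are printed 5′ to 3′ on the gene's strand and end at the base before the start. Capitals mark any match to the motifs searched, and overlapping matches run together. Fasn, fatty acid synthase, is shown for its 3 CCAAT matches, which begin 90, 62 and 59 bases upstream, the last pair overlapping. Thrsp, which had the largest AP against AT difference among the members, has CCAAT matches that begin 79 and 52 bases upstream. Acly is shown for its 4 GC boxes. Mlxipl is shown at the more upstream of its 2 starts, where a CACGTG E box begins 98 bases upstream. Elovl6, the member with the largest depot difference in AT, held no match and is shown without capitals.
Fasn, chr11:120824548-120824797, minus strand: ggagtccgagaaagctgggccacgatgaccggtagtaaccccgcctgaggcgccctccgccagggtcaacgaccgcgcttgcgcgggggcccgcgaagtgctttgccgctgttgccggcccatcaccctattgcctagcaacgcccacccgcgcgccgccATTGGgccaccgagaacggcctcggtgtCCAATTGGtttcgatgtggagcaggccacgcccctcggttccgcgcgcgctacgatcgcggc
Thrsp, chr7:97417551-97417800, minus strand: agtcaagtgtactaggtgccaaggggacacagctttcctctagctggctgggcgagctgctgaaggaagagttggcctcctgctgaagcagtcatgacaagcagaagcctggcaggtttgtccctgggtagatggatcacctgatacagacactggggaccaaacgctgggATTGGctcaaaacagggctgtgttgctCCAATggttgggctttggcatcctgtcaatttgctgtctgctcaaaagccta
Acly, chr11:100528001-100528250, minus strand: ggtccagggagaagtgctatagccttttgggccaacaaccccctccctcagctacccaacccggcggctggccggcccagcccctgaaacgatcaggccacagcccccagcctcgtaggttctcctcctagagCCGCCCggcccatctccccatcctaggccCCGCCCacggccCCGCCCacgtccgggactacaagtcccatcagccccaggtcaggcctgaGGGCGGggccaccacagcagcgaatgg
Mlxipl, chr5:135089640-135089889, plus strand: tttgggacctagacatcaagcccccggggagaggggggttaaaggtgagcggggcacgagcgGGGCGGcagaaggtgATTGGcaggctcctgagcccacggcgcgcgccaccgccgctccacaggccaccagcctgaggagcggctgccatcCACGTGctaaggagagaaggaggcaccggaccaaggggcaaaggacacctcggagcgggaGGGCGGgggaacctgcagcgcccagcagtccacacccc
Elovl6, chr3:129532136-129532385, plus strand: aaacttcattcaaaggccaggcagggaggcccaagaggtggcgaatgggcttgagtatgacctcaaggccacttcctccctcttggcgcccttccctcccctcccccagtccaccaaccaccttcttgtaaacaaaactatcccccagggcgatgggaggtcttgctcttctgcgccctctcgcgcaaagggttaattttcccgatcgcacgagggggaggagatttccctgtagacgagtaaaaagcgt

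The CCAAT box (CCAAT) was found in 5 of the 10 member windows and in 33.8% of 32851 RefSeq windows of the same length. The GC box (GGGCGG) was in 3 of 10 member windows and in 32.7% of all windows. The E box (CACGTG), which is palindromic, was in 1 of 10 and in 6.02% of all, and the TATA box (TATAAA) in 1 of 10, that of Acacb, and in 12.4% of all. The letters TCACNCCAC, a form of the sterol regulatory element that SREBP proteins bind, were in 1 of 10, at the other start of Mlxipl, and in 1.05% of all windows. The carbohydrate response element, searched as CACGNGNNNNNCNCGNG, was in 0 of 10 and in 0.28% of all. These are matches of letters and not sites, and a window without a match says nothing of the factor. The 2 Mlxipl starts lie 17001 bases apart, and the single probe set does not separate transcripts from them.

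All 9 members were lower in AP than in AT in both depots. In SAT the log2 differences ran from -5.47 for Thrsp to -2.18 for Acly with a median of -3.88, beside a median of 0.03 over all genes. In VAT they ran from -5.54 for Thrsp to -1.99 for Acly with a median of -3.25, beside 0.03 over all genes. Of all genes tested, 16.3% fell in SAT and 16.8% in VAT, 16.1% and 15.8% rose, and 32.4% and 32.6% were called in either direction. A fall of at least 2 on the log2 scale was found for 1.62% of all genes in SAT, where 9 of 9 members had it, and for 1.47% in VAT, where 8 of 9 had it. The AP and AT replicates did not overlap for any member in either depot, which held, in the same direction, for 21.1% of all genes in SAT and 20.4% in VAT. The 11 adipocyte markers had medians of -3.27 and -3.35 in the same comparisons.

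**Figure D1:**
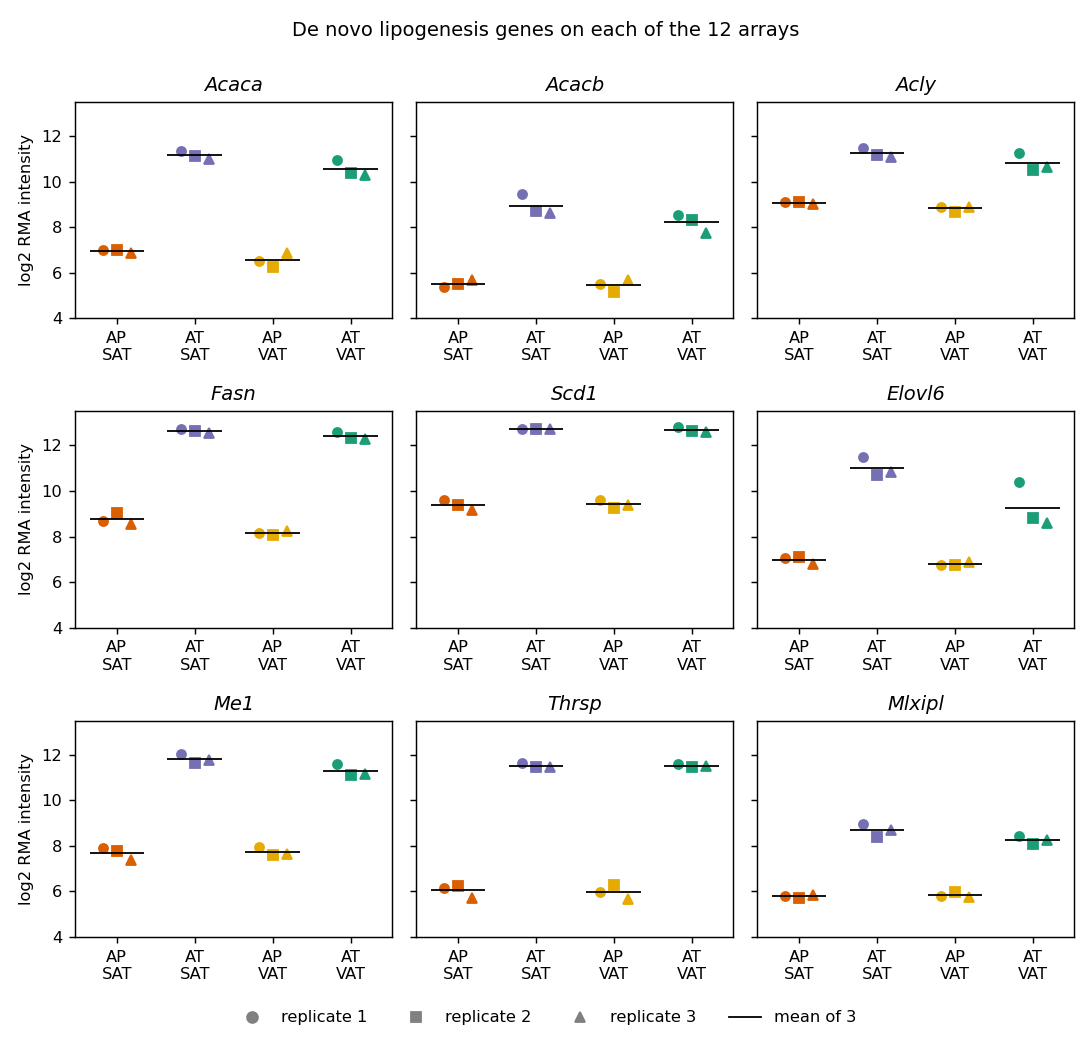
Log2 RMA intensity of the 9 measured lipogenic genes on each of the 12 arrays, by preparation (AP, adipose progenitors; AT, whole adipose tissue) and depot (SAT, subcutaneous; VAT, visceral). Each mark is an array, its shape gives the replicate, and horizontal lines are means of 3 replicates. For each gene shown the 6 AP arrays lie below the 6 AT arrays, and for Elovl6 the visceral AT arrays spread from 8.58 to 10.39.

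**Figure D2:**
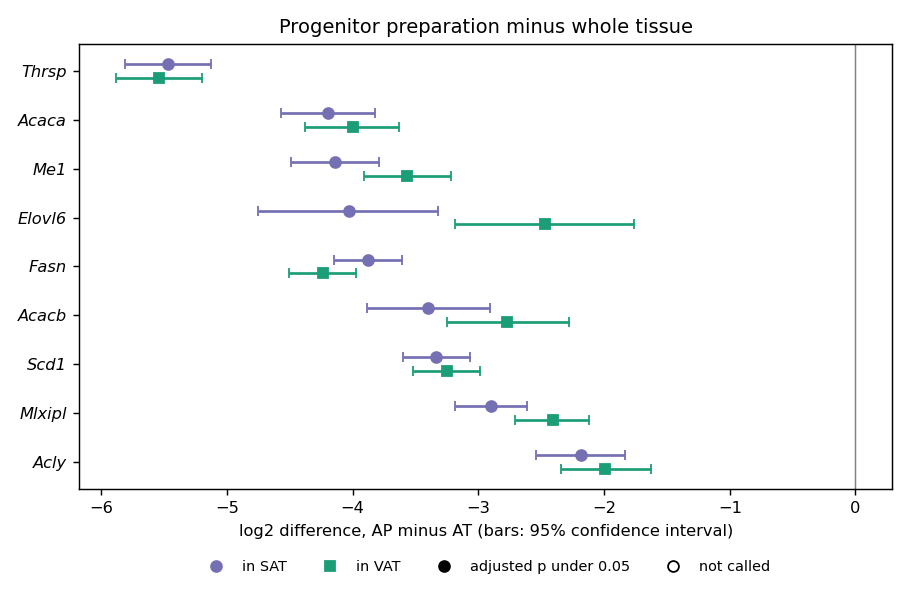
Log2 difference AP minus AT for the 9 lipogenic genes in SAT and in VAT, with 95% intervals from limma. All intervals lie below 0, from Thrsp at -5.47 in SAT and -5.54 in VAT to Acly at -2.18 and -1.99.

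Acly encodes ATP citrate lyase, which makes the cytosolic acetyl-CoA for the pathway (Entrez 104112, GRCm38.p6 chr11:100476352-100528000). Its values were 9.09, 9.09 and 9.0 in AP from SAT and 8.89, 8.68 and 8.89 in AP from VAT. In AT they were 11.47, 11.18 and 11.08 in SAT and 11.27, 10.50 and 10.65 in VAT. The AP arrays lay close together, and the AT arrays from VAT were the more spread. Acly fell by 2.18 on the log2 scale in SAT (SE 0.166, 4.54-fold lower in AP, adjusted p = 5.86e-08) and fell by 1.99 in VAT (3.96-fold, adjusted p = 1.8e-07). It had the smallest fall of the 9 members in both depots.

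Acaca and Acacb encode the acetyl-CoA carboxylases that form malonyl-CoA. The product of Acaca is cytosolic and feeds fatty acid synthesis, while that of Acacb sits at the mitochondrion, where malonyl-CoA restrains the entry of fatty acids for oxidation. Acaca (Entrez 107476, chr11:84129635-84401651) read 7.01, 6.98 and 6.87 in AP from SAT and 6.49, 6.25 and 6.87 in AP from VAT. In AT it read 11.36, 11.12 and 10.97 in SAT and 10.94, 10.39 and 10.29 in VAT. The preparations lay far apart in relation to the spread of either. Acaca fell by 4.20 in SAT (SE 0.176, 18.3-fold, adjusted p = 8.67e-11) and fell by 4.0 in VAT (16.0-fold, adjusted p = 1.52e-10), in log2 units.

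Acacb (Entrez 100705, chr5:114146321-114250761) read 5.37, 5.51 and 5.69 in AP from SAT and 5.50, 5.13 and 5.69 in AP from VAT. In AT the values were 9.47, 8.69 and 8.61 in SAT and 8.54, 8.32 and 7.76 in VAT. The AP groups overlapped each other, and replicate 1 of AT from SAT stood above the others of its group. Acacb fell by 3.40 in SAT (SE 0.227, 10.6-fold, adjusted p = 1.53e-08) and fell by 2.77 in VAT (6.81-fold, adjusted p = 1.54e-07).

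Fasn encodes fatty acid synthase, the enzyme that assembles palmitate (Entrez 14104, chr11:120805958-120825166). Its AP values were 8.67, 9.02 and 8.57 in SAT and 8.14, 8.08 and 8.24 in VAT. Its AT values were 12.72, 12.64 and 12.54 in SAT and 12.59, 12.33 and 12.27 in VAT. In AP all 3 visceral arrays lay below all 3 subcutaneous arrays, while in AT the depots overlapped. Fasn fell by 3.88 in SAT (SE 0.127, 14.7-fold, adjusted p = 5.75e-12) and fell by 4.24 in VAT (18.9-fold, adjusted p = 2.32e-12).

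Me1 encodes the cytosolic malic enzyme, which yields NADPH for the synthase (Entrez 17436, chr9:86581363-86695914). It read 7.90, 7.76 and 7.40 in AP from SAT and 7.93, 7.59 and 7.63 in AP from VAT. In AT it read 12.05, 11.65 and 11.78 in SAT and 11.59, 11.10 and 11.16 in VAT. The depots overlapped in AP and did not overlap in AT. Me1 fell by 4.14 in SAT (SE 0.163, 17.6-fold, adjusted p = 4.15e-11) and fell by 3.57 in VAT (11.8-fold, adjusted p = 2.24e-10).

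Elovl6 encodes the elongase that extends palmitate to stearate, and Scd1 the stearoyl-CoA desaturase that makes oleate. Elovl6 (Entrez 170439, chr3:129532386-129638495) read 7.06, 7.09 and 6.79 in AP from SAT and 6.74, 6.76 and 6.88 in AP from VAT. In AT it read 11.49, 10.71 and 10.84 in SAT and 10.39, 8.83 and 8.58 in VAT. The visceral tissue arrays were widely spread, and even their highest lay below the lowest subcutaneous tissue array. Elovl6 fell by 4.03 in SAT (SE 0.335, 16.4-fold, adjusted p = 1.59e-07) and fell by 2.47 in VAT (5.55-fold, adjusted p = 2.9e-05).

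Scd1 (Entrez 20249, chr19:44394450-44407709) read 9.59, 9.38 and 9.16 in AP from SAT and 9.61, 9.24 and 9.40 in AP from VAT. In AT it read 12.74, 12.70 and 12.70 in SAT and 12.80, 12.63 and 12.58 in VAT. The depots overlapped in both preparations, and the AT values approached 13.48, the highest value on any array. Scd1 fell by 3.34 in SAT (SE 0.126, 10.1-fold, adjusted p = 2.64e-11) and fell by 3.25 in VAT (9.54-fold, adjusted p = 3.16e-11). Scd1 is similar in sequence to the other Scd genes, and cross-hybridisation between them was not tested.

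Thrsp encodes Spot 14, a small protein that promotes lipogenesis and is induced by thyroid hormone and carbohydrate (Entrez 21835, chr7:97412933-97417550). It read 6.16, 6.26 and 5.73 in AP from SAT and 5.97, 6.30 and 5.66 in AP from VAT. In AT it read 11.65, 11.45 and 11.45 in SAT and 11.60, 11.47 and 11.49 in VAT. The depots were interleaved in both preparations, and the AP arrays were the more spread. Thrsp fell by 5.47 in SAT (SE 0.159, 44.2-fold, adjusted p = 1.54e-12) and fell by 5.54 in VAT (46.6-fold, adjusted p = 1.75e-12), the largest falls among the members.

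Mlxipl encodes ChREBP, the glucose-responsive transcription factor of the pathway (Entrez 58805, chr5:135089890-135139768). It read 5.78, 5.72 and 5.83 in AP from SAT and 5.80, 5.99 and 5.76 in AP from VAT. In AT it read 8.94, 8.37 and 8.72 in SAT and 8.43, 8.10 and 8.26 in VAT. The AP groups overlapped, and in AT the lowest subcutaneous array lay below the highest visceral array. Mlxipl fell by 2.90 in SAT (SE 0.137, 7.46-fold, adjusted p = 3.23e-10) and fell by 2.41 in VAT (5.33-fold, adjusted p = 2.59e-09).

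Within AP, the depots differed for 1 of 9 members. Fasn was lower in VAT, with a log2 difference VAT minus SAT of -0.60 (SE 0.127, 95% interval from -0.87 to -0.33, 1.52-fold, adjusted p = 0.00889). Among all genes 2.6% fell and 3.03% rose in this comparison, and 5.64% were called in either direction. The call for Fasn was lost without AP from SAT replicate 2 (adjusted p = 0.0551) and when arrays were scaled to housekeeping genes (adjusted p = 0.688). Acly was also lower in VAT on every array, but its difference of -0.24 did not pass the test (adjusted p = 0.589). Non-overlapping replicates with lower values in VAT were thus seen for 2 of 9 members and for 10.5% of all genes. Acaca had a difference of -0.42 (adjusted p = 0.25). The other 6 members had differences between -0.19 and 0.07 with adjusted p of 0.891 to 0.972. Their 95% intervals limit the size of any difference, for Scd1 to -0.23 to 0.31, for Thrsp to -0.41 to 0.27 and for Elovl6 to -0.90 to 0.53.

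Within AT, the depots differed for 1 of 9 members, Elovl6. Its mean was 11.01 in SAT and 9.27 in VAT, a log2 difference of -1.75 (SE 0.335, 95% interval from -2.46 to -1.03, 3.36-fold, adjusted p = 0.0057). Among all genes 1.75% fell, 2.8% rose and 4.55% were called in either direction. Elovl6 lost the call when only the 6 AT arrays were fitted (adjusted p = 0.0595), with the same difference. Acaca, Acacb and Me1 also had all 3 visceral arrays below all 3 subcutaneous arrays, so 4 of 9 members did not overlap, against 7.26% of all genes. Their differences were -0.61, -0.72 and -0.54, with adjusted p of 0.0664, 0.0999 and 0.0787, and none passed the test. Acly had -0.44, Mlxipl -0.41 and Fasn -0.24, with adjusted p of 0.188, 0.12 and 0.4. Scd1 had -0.04 with a 95% interval from -0.31 to 0.22 and Thrsp 0.00 with an interval from -0.34 to 0.34. The median over the members was -0.44, beside 0 over all genes.

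**Figure D3:**
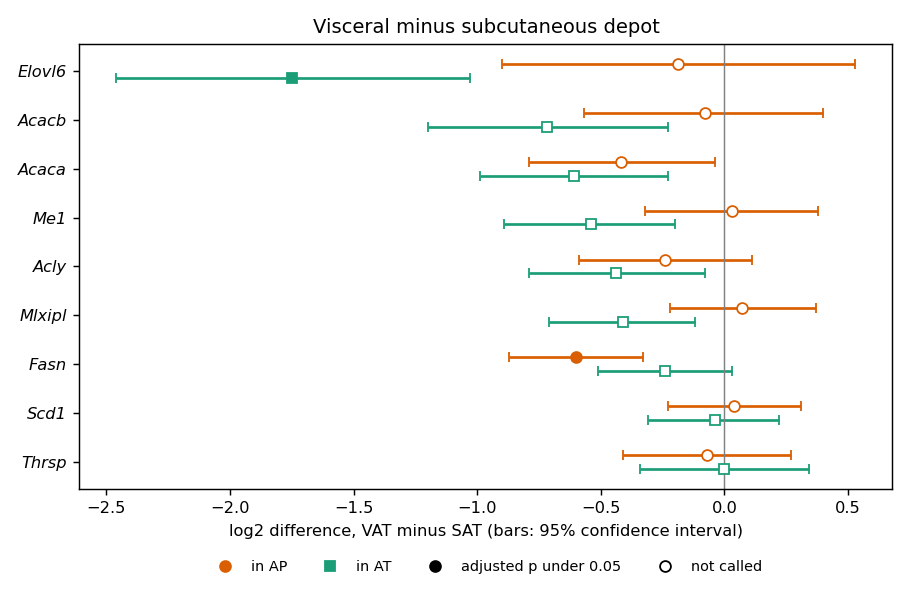
Log2 difference VAT minus SAT for the 9 lipogenic genes within AP and within AT, with 95% intervals from limma. Filled and open marks separate genes that passed an adjusted p of 0.05 from those that did not. Fasn passed in AP at -0.60 and Elovl6 in AT at -1.75.

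Markers of other cells were set beside the depot difference in AT. Of the 7 brown or beige adipocyte markers, Cidea, Cox8b and Prdm16 fell in VAT relative to SAT, with log2 differences of -4.53, -2.92 and -0.75, and the call for Prdm16 was lost with housekeeping scaling and with the mean over its probe sets. The remaining 4, Ucp1, Elovl3, Dio2 and Ppargc1a, did not pass the test. The mean level of this list was 5.94 to 8.42 on the subcutaneous AT arrays, 4.74 to 5.40 on the visceral ones and 4.22 to 4.58 on the AP arrays. Ucp1, the uncoupling protein that defines these cells, was dim in AP from VAT, and Elovl3 and Dio2 were dim in AT from VAT. The part of these cells in the lower Elovl6 values of visceral tissue, or in the depot differences of the other members, was not tested. All 8 mesothelial markers were higher in VAT in both preparations, and their part was not tested either. For Fasn in AP the mean mesothelial level was 5.32 to 5.59 on the subcutaneous and 8.36 to 8.78 on the visceral arrays. The 12 markers of mammary epithelium, a lipogenic tissue near the inguinal fat, had mean levels from 4.04 to 4.46 on all arrays. Of these, 6 were dim in all 4 groups, Epcam, Csn2 and Lalba included. Cldn3 was higher in AP than in AT, by 0.78 in SAT and 0.68 in VAT. Krt18 was higher in VAT than in SAT, by 0.92 in AP and 1.03 in AT, where the call was lost without both AT replicate 1 arrays. No other marker of this list was called in these comparisons.

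The depot difference was compared between the preparations by the interaction, the VAT minus SAT difference in AP minus that in AT. It was called for 0 of 9 members with limma and for 2.15% of all genes. At an unadjusted p under 0.05 there were 3 members, Elovl6, Me1 and Mlxipl, and 13.4% of all genes. Elovl6 had the largest interaction at 1.56 (SE 0.474, adjusted p = 0.12), and it passed the test without AT from VAT replicate 1 (2.12, adjusted p = 0.00117) and with housekeeping scaling (1.40, adjusted p = 0.00783). Over its 22 alternatives the adjusted p ran from 0.000496 to 0.266, and 3 were below the threshold. Me1 had 0.57, Mlxipl 0.49, Acacb 0.63 and Fasn -0.36, with adjusted p of 0.274, 0.269, 0.425 and 0.409. In the reported fit it is thus not shown that the depot difference of Fasn or of Elovl6 differs between AP and AT.

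A pattern seen after the values had been examined concerned the tissue replicates. AT replicate 1 was the highest of the 3 arrays in both depots for 9 of 9 members, which held for 8.83% of all genes. The members' mean deviation from their group mean was 0.24 on that array in SAT and 0.36 in VAT, against -0.21 to -0.11 on the other AT arrays and -0.12 to 0.07 on the AP arrays. It was widest for Elovl6 in VAT, with 10.39 against 8.83 and 8.58. The depot difference of Elovl6 between AT arrays of the same number was -1.10, -1.88 and -2.26, and without both of these arrays it was -2.07 in the fit (adjusted p = 5.57e-06). Without AT from VAT replicate 1, Acaca, Acly and Me1 passed the test as well, with differences of -0.81, -0.67 and -0.70 and adjusted p of 0.0135, 0.0107 and 0.0331. Without both AT replicate 1 arrays only Acly of these 3 passed, with -0.56 (adjusted p = 0.0436), while Acaca had -0.70 (adjusted p = 0.0582) and Me1 -0.58 (adjusted p = 0.126). The members' spread was above that of the typical gene in all 4 groups. Their median SD in AT was 0.203 in SAT and 0.267 in VAT beside 0.132 and 0.144 over all genes, and in AP it was 0.165 and 0.186 beside 0.114 and 0.14.

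The same arrays were not the highest for adipocyte genes as a whole. AT replicate 1 was the highest in both depots for 1 of 11 adipocyte markers, Pnpla2, and for 10 of 16 genes that supply citrate, acetyl-CoA and NADPH. It was so for 2 of 18 other genes of elongation and desaturation and for 4 of 29 regulators, namely Srebf1, Insig1, Prkaa2 and Slc2a4. Of the 7 brown or beige markers it was the highest for 3, Ucp1, Cidea and Cox8b. Ucp1 read 10.76, 8.62 and 4.55 in AT from SAT and 5.69, 4.17 and 4.32 in AT from VAT, and Cidea 10.64, 9.73 and 8.71 in SAT and 6.16, 4.57 and 4.76 in VAT. Whether these cells, the animals or the handling of the samples had a part in the pattern was not tested.

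**Figure D4:**
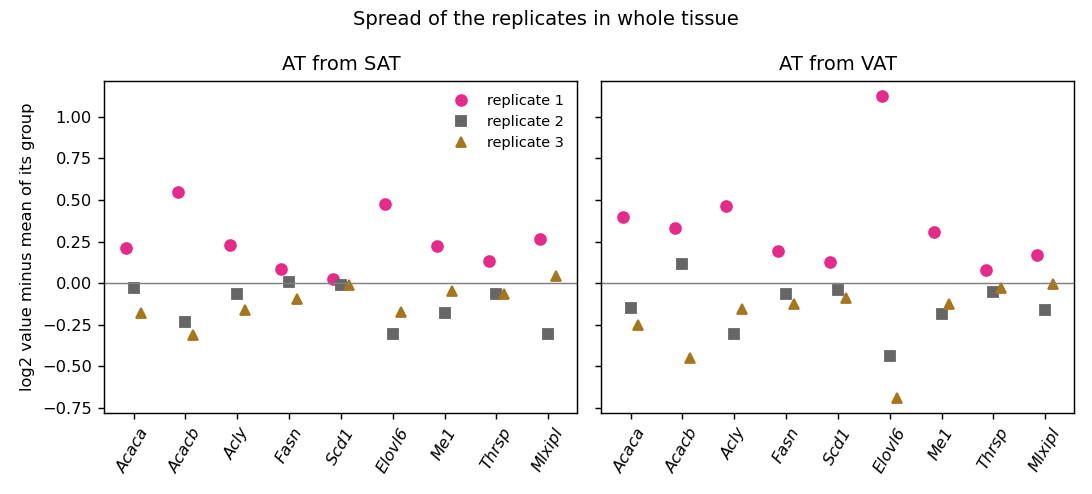
Deviation of each lipogenic gene from the mean of its own group, in log2 units, on the 3 AT arrays from SAT and the 3 from VAT, with the shape of the mark giving the replicate. AT replicate 1 lies above its group mean for 9 of 9 genes in both depots, with a mean of 0.24 in SAT and 0.36 in VAT.

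The genes around the members were taken from 4 lists with 72 tested genes. Together, 41 of the 72 fell in AP relative to AT in SAT and 8 rose, with a median of -0.62, and in VAT 40 fell and 9 rose, with a median of -0.51. Of all genes, 16.3% fell and 16.1% rose in SAT, and 16.8% fell and 15.8% rose in VAT. The split of the 72 depends on the scaling. Scaling the arrays to 11 housekeeping genes moved the median of all genes from 0.03 to 0.683 in SAT and from 0.033 to 0.53 in VAT. Of the 72 related genes, 23 then fell and 26 rose in SAT, and 24 fell and 18 rose in VAT. The 9 members fell under every scaling that was tried. For the called values of the related genes below, this scaling moved the value by over 1.5 times where it is given, and otherwise by less.

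Among the genes that supply citrate, acetyl-CoA and NADPH, 12 of 16 fell in AP in SAT and 13 of 16 in VAT, and none rose. Pcx, pyruvate carboxylase, which replenishes oxaloacetate, fell by 4.97 in SAT and fell by 5.09 in VAT (adjusted p = 2.61e-12 and 2.31e-12). Slc25a1, the mitochondrial citrate carrier upstream of Acly, fell by 3.06 and fell by 2.65. Acss2, which makes acetyl-CoA from acetate, fell by 3.52 and fell by 3.28, and Pdhb, a subunit of pyruvate dehydrogenase, fell by 3.17 and fell by 2.63. Between depots in AT, Pdhb (-0.89), Slc25a10 (-0.65) and Slc25a1 (-0.60) were lower in VAT, with adjusted p of 0.00264, 0.0269 and 0.0177, and all 3 lost the call with housekeeping scaling (-0.56, -0.33 and -0.28). Slc25a1 also lost it with only the groups compared and without AT from SAT replicate 1 or 2 or AT from VAT replicate 2 or 3, and Slc25a10 without AT from SAT replicate 1 or 3 or AT from VAT replicate 1 or 2 or without both AT replicate 1 arrays. H6pd, a hexose-6-phosphate dehydrogenase of the endoplasmic reticulum, was higher in VAT in AT (0.88, adjusted p = 0.00877) and in AP (0.67, adjusted p = 0.0392), and the call in AP was lost without AP from SAT replicate 1 or 2, AP from VAT replicate 1 or 3, AT from SAT replicate 1 or AT from VAT replicate 1, with adjusted p of 0.0507 to 0.193. It was also lost with a random replicate block (adjusted p = 0.0509), with only the groups compared (adjusted p = 0.0754) and without both AT replicate 1 arrays (adjusted p = 0.0715), which lost the call in AT too (0.84, adjusted p = 0.105).

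The other genes of elongation and desaturation were split. In SAT 7 of 18 fell and 4 rose, and in VAT 6 fell and 4 rose, with medians of -0.07 and -0.01. Hacd2 and Hsd17b12, which act in the elongation cycle with Elovl6, fell in both depots, with differences of -2.67 and -2.35 in SAT and their differences in VAT were -2.62 and -2.0. Hsd17b12 was also lower in VAT than in SAT in AT (-0.61, adjusted p = 0.0191), a call lost with housekeeping scaling (-0.28, adjusted p = 0.389), without AT from SAT replicate 1 or 2, without AT from VAT replicate 3 and without both AT replicate 1 arrays. Fads2, the delta-6 desaturase of polyunsaturated fatty acids, rose by 1.56 in SAT and 1.48 in VAT (adjusted p = 1.05e-05 and 2.01e-05), and Elovl1, an elongase of very long chains, rose by 0.82 and 0.59 (1.47 and 1.09 with housekeeping scaling). Fads6, a member of the desaturase family, rose by 0.56 in SAT and 0.94 in VAT (1.22 and 1.44 with that scaling). Fads3, of the same family, fell by 0.85 in SAT (adjusted p = 6.39e-05), a call lost with housekeeping scaling (-0.20, adjusted p = 0.446). In VAT Fads3 fell by 1.35 (-0.85 with that scaling), and in AT it was higher in VAT than in SAT (0.90, adjusted p = 0.000464). Fads1, the delta-5 desaturase, rose in SAT by 0.98 (adjusted p = 8.03e-05, and 1.63 with housekeeping scaling) and had 0.03 in VAT (adjusted p = 0.903). Elovl3, an elongase that brown adipocytes express, fell by 2.01 in SAT (adjusted p = 0.0142) and had -0.21 in VAT. Its mean was dim in AP in both depots and in AT from VAT, and it read 7.61, 4.88 and 4.06 in AT from SAT. Without AT from SAT replicate 1 the difference was -0.97 (adjusted p = 0.00873). The call in SAT was lost when only the compared groups were fitted (adjusted p = 0.0549) and with trend and robust options (adjusted p = 0.0852).

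Of the 29 regulators, 14 fell and 4 rose in SAT, and 13 fell and 5 rose in VAT. Srebf1, which encodes SREBP-1, fell by 1.06 in SAT and fell by 1.38 in VAT (adjusted p = 2.64e-06 and 1.73e-07), and with housekeeping scaling the values were -0.41 (adjusted p = 0.11) and -0.88 (adjusted p = 0.00146). Srebf2, whose product drives cholesterol synthesis, rose by 1.42 and 0.89, as did its escort Scap by 0.79 and 0.48. Mbtps1, the site-1 protease that cleaves SREBP proteins, rose by 0.82 and 0.41, and the call in VAT was lost without AP from VAT replicate 3 (0.28, adjusted p = 0.0742), without AT from VAT replicate 1 (0.37, adjusted p = 0.0621) and without both AT replicate 1 arrays. With housekeeping scaling Srebf2 had 1.39 in VAT, Scap 1.45 and 0.98, and Mbtps1 1.47 and 0.91. Mlx, the partner of ChREBP, had -0.27 and -0.22 (adjusted p = 0.121 and 0.208). Mlxip, the paralog of Mlxipl, had 0.34 in SAT (adjusted p = 0.0523) and rose by 0.53 in VAT (adjusted p = 0.00422), with 1.00 and 1.03 under housekeeping scaling. Nr1h3, the nuclear receptor LXR alpha, had -0.19 and -0.13 (adjusted p = 0.194 and 0.391). Pnpla3, a known SREBP-1c and ChREBP target, fell by 4.69 and fell by 4.49. Lpin1, a phosphatidate phosphatase of triglyceride synthesis, fell by 2.90 and fell by 3.01, and Slc2a4, the insulin-responsive glucose transporter, fell by 2.21 and fell by 1.68. Insig1, which retains the SREBP complex in the endoplasmic reticulum, fell by 1.74 (-1.08 with housekeeping scaling) and fell by 2.04 in AP, and it was lower in VAT than in SAT in AP (-1.09, adjusted p = 0.000874) and in AT (-0.78, adjusted p = 0.0152). The depot call in AT was lost with housekeeping scaling (-0.46, adjusted p = 0.243), without AT from SAT replicate 1 (-0.66, adjusted p = 0.0828), without AT from VAT replicate 3 (-0.72, adjusted p = 0.065) and without both AT replicate 1 arrays (-0.75, adjusted p = 0.0925).

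The separate mitochondrial pathway of fatty acid synthesis makes the precursor of lipoic acid. It was lower in AP for 8 of 9 genes in each depot, against 16.3% of all genes in SAT and 16.8% in VAT. Its medians were -0.72 and -0.78. Cbr4, a subunit of its ketoacyl reductase, fell by 2.03 in SAT and fell by 1.61 in VAT, Ndufab1, the acyl carrier protein, fell by 1.41 and fell by 0.96, and Lias, lipoic acid synthase, fell by 1.35 and fell by 1.48. With housekeeping scaling Ndufab1 had -0.76 in SAT (adjusted p = 0.004) and -0.47 in VAT, where the call was lost (adjusted p = 0.0834), and Lias had -0.70 and -0.98. Lipt2 did not pass the test. Under that scaling the median of all genes was 0.683 in SAT and 0.53 in VAT, and the calls of this list were not counted.

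**Figure D5:**
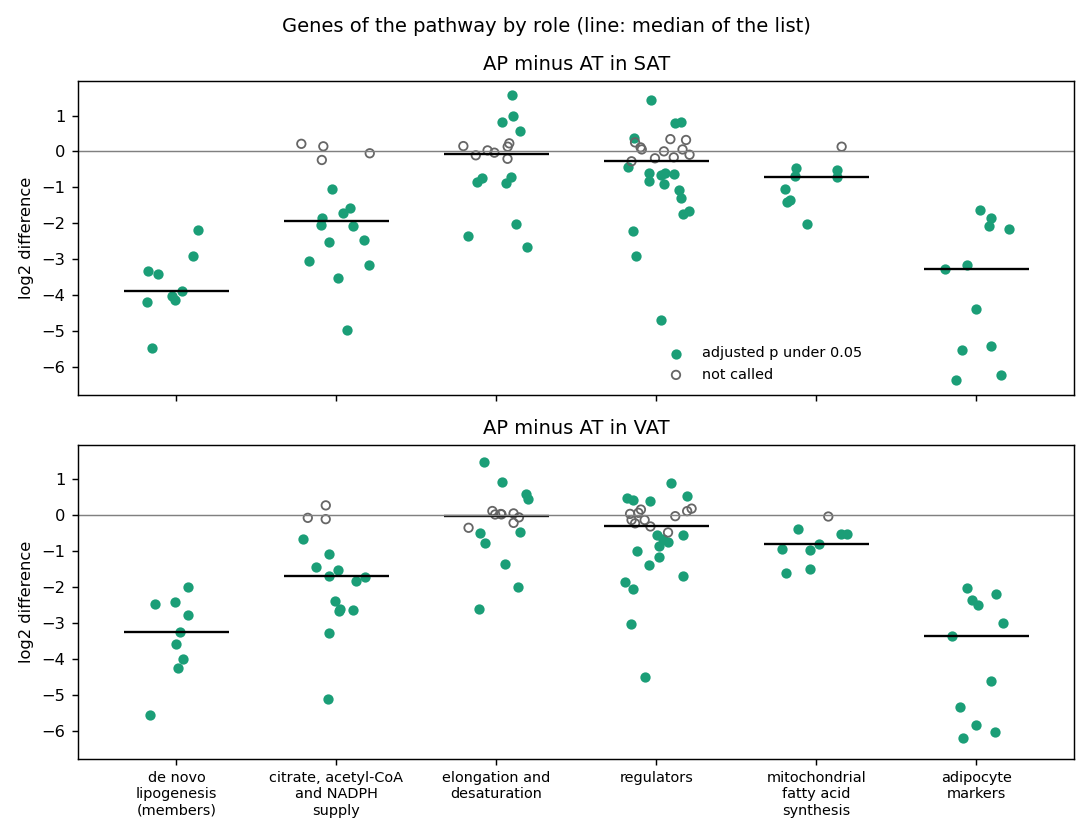
Log2 difference AP minus AT in SAT and VAT for the 9 lipogenic genes, 4 lists of related genes and the adipocyte markers, each point a gene (filled where the adjusted p was under 0.05) and each line the median of its list. The lipogenic genes have medians of -3.88 and -3.25, the adipocyte markers -3.27 and -3.35, and the list of elongation and desaturation lies around 0 with medians of -0.07 and -0.01.

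The genes whose pattern was most like that of the members were found by correlation over the 12 arrays with the mean of the scaled members, as a description, since all 12 points share the difference between the preparations. Outside the lists the highest Pearson correlations were those of Agpat2 (0.9979), Mpc1 (0.9977), Klb (0.9966), Orm1 (0.9965) and Gpd1 (0.996). Agpat2 encodes an acyltransferase of triglyceride synthesis, Mpc1 a subunit of the mitochondrial pyruvate carrier and Gpd1 the glycerol-3-phosphate dehydrogenase of the cytosol. Agpat2 fell by 3.86 in SAT and fell by 3.34 in VAT and was lower in VAT than in SAT in AT (-0.59, adjusted p = 0.0104), a call lost with housekeeping scaling (-0.27, adjusted p = 0.408), with only the groups compared (adjusted p = 0.0564) and without AT from SAT replicate 1 (-0.52, adjusted p = 0.0622). Gpd1 was also lower in VAT than in SAT in AT (-0.75, adjusted p = 0.0473), a call lost in 14 of 23 alternatives. Mpc1, Klb and Orm1 did not pass the test in that comparison. Among the members, the correlation with the mean of the other members ran from 0.947 for Elovl6 to 0.997 for Acaca and Me1.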

How the data were processed

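RNA from 12 samples in 4 groups was measured on Affymetrix mouse arrays. The deposited values are log2 intensities that the authors made with RMA in Affymetrix Expression Console 1.3.0.187, per the submitters' processing notes. Base 2 of the log is inferred from RMA and from the range of the values. RMA sets the arrays to a common distribution, so changes that all genes share are not visible. The values were used as deposited.

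Of 41345 probe sets, 23521 were annotated to 1 gene, 1814 to several and 16010 to none. The first kind gave 22180 genes, 1082 of them with several probe sets, of which the one with the highest mean was kept. The annotation is GEO's for the platform and can be old. Of the genes, 21994 were matched to RefSeq by Entrez ID. Promoter windows and gene coordinates are RefSeq's (GRCm38.p6).

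limma 3.58.1 in R 4.3.3 was fitted with 1 mean per group over 12 arrays (8 residual and 6.84 prior degrees of freedom). The tests are 2-sided and moderated, with Benjamini-Hochberg adjustment over all genes within a comparison and a threshold of 0.05. Intervals and standard errors (SE) come from that fit. SD is the spread of 3 replicates; with 3 arrays a group, precision is limited. The code was tested on simulated data. An exact permutation test of 3 arrays against 3 cannot go below 0.1 and was not used. Figures were drawn with Python 3.11.15.

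The members and the lists were chosen with earlier results of these data known. Named are all measured members, the called genes that rose most and fell most (up to 3 each) per related list and comparison, Srebf1, Mlx, Nr1h3, Pnpla3 and Slc25a1 whatever their values, the cell type markers, and the 5 genes most correlated with the members. Prkaa2 is named as part of a small count, after its value was seen. As alternatives the fit was repeated with a fixed or random block for the replicate number, trend and robust empirical Bayes, array weights, only the groups compared, quantile normalization, cyclic loess, housekeeping scaling, a filter on dim genes, the mean over probe sets, an added minimum log2 difference of 1, and 12 fits that each dropped 1 array. Leaving out both AT replicate 1 arrays was added after seeing the data.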

Additional observations from a re-analysis of the deposited data

Results flagged for a closer look

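The depot difference differed between the preparations for 1 related gene and 6 markers of cell types, by limma's interaction test with Benjamini-Hochberg adjustment over all genes. For Fads1 the difference in AP minus that in AT was -0.95 (SE 0.211, adjusted p = 0.0297). Its 6 AP arrays and the 3 visceral AT arrays lay between 9.06 and 9.42, and the subcutaneous AT arrays read 8.07, 8.01 and 8.64. The call was lost in 11 of 22 alternatives. For Lpl, lipoprotein lipase, it was -0.55 (adjusted p = 0.0427), with -0.39 in AP and 0.16 in AT, and the call was lost in 17 of 22 alternatives. For Cidea, a lipid droplet protein of brown adipocytes, it was 4.58 (SE 0.567, adjusted p = 0.000601), with 0.05 in AP and -4.53 in AT, and the call held in all 22 alternatives. Of the endothelial markers, Kdr, a VEGF receptor, had 1.95 (adjusted p = 0.000489), with 1.37 in AP and -0.58 in AT, and kept the call in all 22 alternatives. Emcn, endomucin, had 1.16 (adjusted p = 0.045) and lost the call in 14 of 22. The other 6 of the 8 endothelial markers were not called by this test. Within AP the median depot difference of the 8 was -0.08. Kdr and Emcn were called higher in VAT there, and Tek lower, with -1.13. Wt1, a mesothelial transcription factor, had 0.71 (adjusted p = 0.0219), with 2.40 in AP and 1.69 in AT, and lost the call in 7 of 22. Acta1, the actin of skeletal muscle, had -1.41 (adjusted p = 0.0169), with -0.06 in AP and 1.34 in AT, and lost the call in 1 of 22, without both AT replicate 1 arrays. The other 5 of the 6 skeletal muscle markers were not called by this test. They were not called between depots in AT either, where the median of the list was -0.07.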

How the results depend on the processing

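The fall of the 9 members in AP relative to AT was called in both depots under every alternative run, in 207 of 207 values each. No called value of a member, or of a related gene whose value is given above, changed sign. The signs of the remaining related genes were not compared between the fits. Counting only values called in the reported fit or under housekeeping scaling, that scaling turned AP against AT in SAT for 9 cell type markers. The values became 0.55 for Cd79a, 0.64 for Ckm, 0.52 for Defb20, 0.05 for Gpm6a and 0.65 for Krt14. They became 0.64 for Myh1, 0.50 for Myh4, 0.53 for Prdm16 and 0.65 for Upk3b. Of these only Gpm6a was called in the reported fit, where it was lower in AP. Markers called in neither fit were not counted. The depot calls rest on few arrays. The count of members that differed between depots in AT, 1 as reported, was 2 with the replicate block (Elovl6 and Me1), 2 with cyclic loess, 0 with only the groups compared, 2 without both AT replicate 1 arrays, and 1 to 4 when single arrays were left out, with 4 without AT from VAT replicate 1, 2 without AT from SAT replicate 2 (Elovl6 and Mlxipl) and 2 without AP from VAT replicate 3 (Acaca and Elovl6). Elovl6 ranged from -2.31 to -1.40. In AP the count of 1 was 0 with housekeeping scaling or a log2 difference of at least 1, and 0 to 1 without single arrays. For the interaction, 0 as reported, it was 1 with housekeeping scaling, 1 without both AT replicate 1 arrays and 0 to 1 without single arrays. Of the related genes, the calls for AP against AT (41 lower and 8 higher in SAT, 40 and 9 in VAT) came to 28 in SAT and 26 in VAT with a log2 difference of at least 1. Their depot count in AP, 2, was 1 with the random replicate block, 6 with array weights, 4 with quantile normalization, 1 with a log2 difference of at least 1 and 1 to 4 without single arrays (4 without AP from VAT replicate 3, 1 without AP from VAT replicate 1, AP from SAT replicate 2 or AT from SAT replicate 1). In AT the count of 8 was 0 with a log2 difference of at least 1, 4 without both AT replicate 1 arrays and 4 to 12 without single arrays (4 without AT from SAT replicate 1, 5 without AT from VAT replicate 3). The interaction count of 1 was 2 with the replicate block, 0 with cyclic loess, a log2 difference of at least 1 or without both AT replicate 1 arrays, and 0 to 2 without single arrays, being 2 without AP from VAT replicate 3 or AT from SAT replicate 3, 1 without AP from SAT replicate 3 or AT from VAT replicate 2, and 0 without any of the other 8. Housekeeping scaling moved the median of all genes between depots from 0 to 0.167 in AP and from 0.003 to 0.327 in AT. For the interaction it moved from -0.003 to -0.16. The related genes called between depots in AT were then 5 higher and 1 lower, against 3 and 5. The cause of these changes was not tested. Over all genes and all pairs of groups, same-numbered arrays did not consistently deviate together (18 pairs, correlations of -0.28 to 0.159, 3 above 0.1). An array was closest to its own number in 14 of 36 comparisons, so the numbers were not taken to pair the samples. Between SAT and VAT the same-numbered correlations were 0.02, 0.118 and 0.087 in AP and 0.097, -0.135 and 0.055 in AT. Correlations of this kind cannot exclude that same-numbered samples share animals. The block changed no other call of a member.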

Other observations

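Among the adipocyte markers, the depots differed in AP for 3 of 11, against 5.64% of all genes, while the list's median difference was 0.09. Pparg, the master regulator of adipocyte differentiation, was lower in VAT, with a log2 difference of -0.74 (limma, Benjamini-Hochberg adjusted p = 0.013), and so was Lpl with -0.39 (adjusted p = 0.0196). Retn, the hormone resistin, was higher by 0.71 (adjusted p = 0.0189). In AT the same genes had differences of -0.10, 0.16 and 0.17 and did not pass the test, whereas Lep, leptin, was higher in VAT (1.05, adjusted p = 0.00556). In AP the call for Pparg was lost without AP from SAT replicate 2 (-0.68, adjusted p = 0.0648) and without AP from VAT replicate 2 (-0.64, adjusted p = 0.0789), and with housekeeping scaling (-0.57, adjusted p = 0.319). The call for Lpl was lost with housekeeping scaling (-0.22, adjusted p = 0.871), with the mean over its probe sets (adjusted p = 0.0869) and without AP from SAT replicate 2 or 3 or AP from VAT replicate 2, and that for Retn without AP from SAT replicate 1 or 3 or AP from VAT replicate 1.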
